A study of Homo sapiens with 14 samples.

Results

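RBPMS is an RNA-binding protein of the RNA recognition motif family. It is best known in smooth muscle and heart, where it binds CAC-containing transcripts and regulates their splicing. Its depletion was compared here with a control hairpin in Kasumi-1, an established human acute myeloid leukaemia cell line. These cells carry the chromosome translocation that fuses RUNX1, a transcription factor of blood stem cells, to RUNX1T1, a corepressor, and they resemble myeloblasts, the granulocyte precursors of the bone marrow. Both groups were infected with lentivirus for 48 h, selected with puromycin for 48 h and harvested for total RNA. The shCtrl group (3 libraries) carried a scramble hairpin, and the shRBPMS group (3 libraries) carried a hairpin against RBPMS. The title of the study names USP1, m6A methylation of mRNA and FOXO1, so those genes are described first after RBPMS itself. The hairpin sequences, the number of hairpins and whether the libraries came from separate cultures are not given in the sources used here, and p-values then measure only the spread between these libraries. One cell line was used.

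The comparison covered every gene of the deposited count table: 16405 genes in these 6 libraries, of the 14 samples of the series. A filter on low counts passed 16392 of them. The column names divide the libraries into 2 label sets: replicate 1 of each group forms set 1, and replicates 2 and 3 of each group form set 2. What the sets were (cultures, days or sequencing runs) is not stated, and the set entered each fit as a covariate. Levels below are CPM, a gene's counts relative to the library total, scaled by edgeR's TMM factors, listed in the order of replicates 1, 2 and 3; they are not divided by transcript length, so they are compared between libraries and not between genes. Fold changes are shRBPMS over shCtrl on the log2 scale with their standard error (SE), and a gene was called when its Benjamini-Hochberg adjusted p in edgeR's quasi-likelihood test was under 0.05.

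Libraries held 24027255 to 34375418 counts. The label sets differed more than the groups did: the first principal component carried 55.0% of the variance and parted the sets, and the second carried 32.7% and parted shCtrl from shRBPMS. Mitochondrially encoded RNA took 15.2% and 13.2% of the counts in the set 1 libraries and 6.2% to 6.95% in set 2. Within set 2, replicates 2 and 3 were much closer to each other (chi-square per degree of freedom of 3.0 in either group) than to replicate 1 (133.3 to 214.8). Myeloblast markers were present in every library: MPO, the myeloperoxidase of primary granules, lay between 11595 and 16424 CPM, KIT between 645 and 1035, and CD34 between 163 and 287.

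RBPMS itself was lower in every knockdown library. Its levels were 20.5, 7.27 and 7.42 CPM in shCtrl and 2.48, 3.35 and 3.09 CPM in shRBPMS, so the groups did not overlap. The fall was 1.81 on the log2 scale (SE 0.31, adjusted p = 0.00247). The shCtrl library of set 1 stood well above its set 2 counterparts, and the log2 ratio was -2.93 in set 1 and -1.13 in set 2. What remained of RBPMS was similar in the 3 knockdown libraries. Its close relative RBPMS2, named here after its values were seen, was scarce in both groups (1.84, 0.288 and 0.544 CPM in shCtrl and 0.40, 0.141 and 0.0359 CPM in shRBPMS) and was called lower as well (log2 fold change -2.19, SE 0.45, adjusted p = 0.0052), although the shRBPMS library of set 1 lay within the shCtrl range.

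FOXO1, a forkhead transcription factor that restrains proliferation and supports stem cell maintenance, fell. Its levels were 38.8, 13.4 and 13.2 CPM in shCtrl and 7.84, 7.69 and 7.25 CPM in shRBPMS (log2 fold change -1.34, SE 0.25, adjusted p = 0.00373). As with RBPMS, the shCtrl level was high in set 1 and the knockdown level was much the same in every library, so that the ratio was -2.27 in set 1 and -0.81 in set 2. USP1, the deubiquitinase of FANCD2, changed little in size: it stood at 174, 172 and 167 CPM in shCtrl and at 129, 150.5 and 139 CPM in shRBPMS. The groups did not overlap and the gene was called lower, by 0.30 on the log2 scale (SE 0.06, adjusted p = 0.00627). With replicates 2 and 3 of each group summed into 1 library, the adjusted p of USP1 was 0.117, while RBPMS (0.00321) and FOXO1 (0.0044) stayed called.

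**Figure D1:**
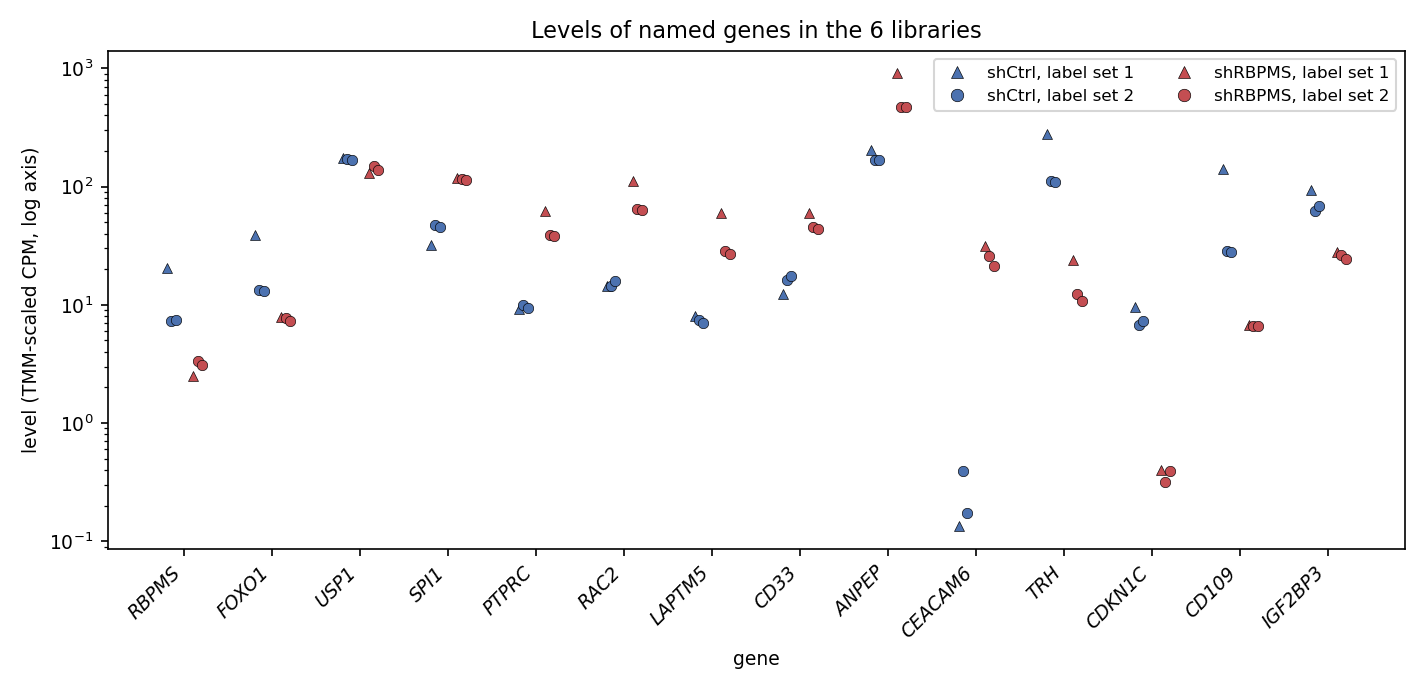
Level of 14 named genes in each library (TMM-scaled CPM, log axis), with shCtrl in blue and shRBPMS in red, triangles for label set 1 and circles for label set 2. Each point is 1 library; for CEACAM6 and CDKN1C the groups lie far apart in both sets, whereas for RBPMS, FOXO1 and CD109 the shCtrl level itself differed between the sets.

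Over all genes, 5806 of 16392 (35.4%) were called after the knockdown, 2735 (16.7%) higher and 3071 (18.7%) lower. Most changes were small, with a median size of 0.46 on the log2 scale among called genes. A change of at least 1 was called for 932 genes (5.69%), of which 360 (2.2%) rose and 572 (3.49%) fell, and 44 rose and 113 fell by at least 2. The median fold change over all genes was 0.01, so the shift of all genes was close to 0. These counts lean on the label set term and on treating replicates 2 and 3 as separate libraries: a fit on group alone called 320 genes (before adjustment, 2733 had a p under 0.05), and the fit with replicates 2 and 3 summed called 2681. Gene list counts that this summed fit moved by more than 1.5 times are given with it below. Each list count is to be read beside the share over all genes, 35.4% called, 16.7% higher and 18.7% lower. The lists were chosen with earlier results of these data known, so the lean of a list is not independent support for a response. Among the genes named here, 16 of the 144 that were called were not called in the summed fit: USP1, GFI1, RUNX1, FTO, RBM15B, IGF2BP2, YTHDC1, HNRNPA2B1, CELF2, PTBP3, EEF2, MRPS2, SCD, TREM1, MT-ND3 and MT-ND6. The groups did not overlap within either label set for 9123 genes (55.7%), called or not, and 5775 of these (35.2% of those tested) were called; over all 6 libraries they did not overlap for 4229 (25.8%).

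The calls were mostly protein-coding. Of 12350 protein-coding genes tested, 2407 rose and 2810 fell (42.2% called), against 193 and 147 of 2285 long non-coding genes (14.9%) and 90 and 68 of 1160 pseudogenes (13.6%). The share called also climbed with the level of a gene. It was 9.99% at a mean log2 CPM under 0, 38.7% at 2 to 4 and 50.6% over 6. Gene types were not compared at equal level, so the part of level in their difference was not tested. The protein-coding genes that rose had transcripts richer in G and C (median 52.9%) than those that fell (46.9%) or were not called (48.3%). Among changes of at least 1 the medians were close, 53.6% for genes that rose and 52.3% for genes that fell. Median exonic length was 5039 bases for all those called higher, 5526 for those called lower and 4884 for those not called. GC content was not entered in the fit, and its part in the calls was not tested.

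The largest rise was in CEACAM6, a GPI-anchored adhesion molecule of granulocytes. It was nearly silent in shCtrl (0.134, 0.396 and 0.172 CPM, from 3, 11 and 6 counts) and stood at 31.5, 26.1 and 21.4 CPM in shRBPMS (788, 739 and 595 counts). The log2 fold change was 6.75 (SE 0.24, adjusted p = 2.25e-06), the highest among genes of at least moderate abundance (mean log2 CPM of 2 or more), and no library of one group came near the other group.

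Leukocyte signalling genes were called mostly higher. Of 26 tested members of that list, 14 were called higher and 4 lower, and the median member rose by 0.40 on the log2 scale, beside 0.01 over all genes. What part of this lean follows from choosing the list with earlier results known was not tested. PTPRC, the CD45 phosphatase that licenses Src kinases in blood cells, went from 9.22, 10 and 9.4 CPM in shCtrl to 61.6, 38.6 and 38.1 CPM in shRBPMS (log2 fold change 2.23, SE 0.14, adjusted p = 2.18e-05). RAC2, a small GTPase of haematopoietic cells and a part of the phagocyte oxidase, went from 14.3, 14.3 and 15.8 to 111, 64.9 and 63.6 CPM (2.37, SE 0.15, adjusted p = 2.47e-05). LAPTM5, a lysosomal membrane protein of leukocytes, went from 8.1, 7.49 and 7.05 to 59.2, 28.7 and 27.1 CPM (2.25, SE 0.17, adjusted p = 3.93e-05). For these 3 genes the shCtrl level was alike in all libraries, the groups were far apart, and the knockdown level was highest in set 1. The semaphorin SEMA4A went from 2.01, 1.98 and 2.29 to 18.8, 10.2 and 8.79 CPM, with the same order (2.49, SE 0.21, adjusted p = 6.63e-05).

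Not every leukocyte gene went that way. CD48, an adhesion ligand, stood at 2.15, 2.02 and 1.69 CPM in shCtrl and 0.44, 0.529 and 0.861 CPM in shRBPMS, and fell by 1.65 (adjusted p = 0.00255). LCP1, a leukocyte actin bundler, fell by 0.69, from 233, 181 and 179 to 129, 119 and 115 CPM. The Src kinase LYN fell by 0.54, from 254, 149 and 134 to 118, 120.1 and 116 CPM, with a log2 ratio of -1.1 in set 1 and -0.26 in set 2. In each of the 3 genes all knockdown libraries lay below all control libraries.

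Promoter sequence is shown for 3 of the rising leukocyte genes, because genes of this kind are textbook targets of PU.1, an ETS factor encoded by SPI1, which was itself called higher. The windows are the 250 bases upstream of the RefSeq start on GRCh38.p14, 5′ to 3′ on the gene's strand, with each GAGGAA or its reverse complement TTCCTC in capitals. They lie at chr1:156149694-156149943 (plus strand, SEMA4A), chr1:30757775-30758024 (minus strand, LAPTM5) and chr1:198638790-198639039 (plus strand, PTPRC).
SEMA4A: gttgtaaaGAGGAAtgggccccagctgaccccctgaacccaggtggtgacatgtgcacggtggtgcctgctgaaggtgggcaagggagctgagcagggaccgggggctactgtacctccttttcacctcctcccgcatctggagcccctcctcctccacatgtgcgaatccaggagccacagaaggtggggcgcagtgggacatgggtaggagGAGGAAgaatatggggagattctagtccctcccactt
LAPTM5: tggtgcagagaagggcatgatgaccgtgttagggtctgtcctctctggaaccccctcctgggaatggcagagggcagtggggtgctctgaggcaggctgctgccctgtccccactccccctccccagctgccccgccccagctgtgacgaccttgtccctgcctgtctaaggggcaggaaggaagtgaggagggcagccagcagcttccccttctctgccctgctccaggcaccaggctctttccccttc
PTPRC: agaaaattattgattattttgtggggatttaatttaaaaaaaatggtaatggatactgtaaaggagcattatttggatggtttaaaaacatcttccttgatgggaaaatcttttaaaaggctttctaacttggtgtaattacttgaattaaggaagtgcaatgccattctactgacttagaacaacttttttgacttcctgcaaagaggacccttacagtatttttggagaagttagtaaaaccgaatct
The SEMA4A window held 2 matches and the LAPTM5 and PTPRC windows none. Only exact matches were counted. Shorter stretches such as the ggaagt in the LAPTM5 and PTPRC windows were left unmarked. Binding of PU.1 and its part in these rises were not tested. Over all 35116 windows of that length, 23.57% held the 6-base motif on either strand. The share was 23.4% for protein-coding genes called higher, 22.4% for those called lower and 22.9% for those not called. It was 30.5% (58 of 190) among genes that rose by at least 1 and 25.2% (88 of 349) among genes that fell by at least 1. The longer GAGGAAGT, which contains the shorter motif, was in 2.17% of all windows, and in 2.77%, 1.66% and 2.07% of those of genes called higher, called lower and not called. Windows were found for 10052 of the 12350 protein-coding genes.

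Among myeloid transcription factors, 9 of 16 tested members rose and 4 fell (4 and 2 in the summed fit), with a median of 0.31. SPI1 encodes PU.1, the factor that drives monocyte and granulocyte programmes. Its level was 31.9, 47.1 and 45.5 CPM in shCtrl and 119, 117 and 113 CPM in shRBPMS, so every knockdown library was more than 2 times as high as any control library (log2 fold change 1.5, SE 0.11, adjusted p = 3.61e-05). VDR, the vitamin D receptor, which promotes monocytic maturation, rose by 1.29 from 9.49, 18.4 and 15.1 CPM to 34.6, 33.9 and 34.7 CPM, and IRF5, a factor of macrophage activation, rose by 0.61. In the other direction, IRF4, a lymphoid and dendritic cell factor, was low throughout (6.67, 0.612 and 0.974 CPM in shCtrl and 0.36, 0.176 and 0.431 CPM in shRBPMS), and its fall of 2.69 (adjusted p = 0.00587) rested largely on the set 1 control. NFE2, a megakaryocyte and erythroid factor, fell by 0.99 from 3.4, 2.7 and 2.18 CPM to 1.52, 1.48 and 1.11 CPM. RUNX1 fell by 0.30 (822, 492 and 502 CPM to 552, 437 and 453 CPM) and GFI1, a repressor of granulocyte precursors, by 0.30. Reads of the fusion transcript cannot be told apart here from those of RUNX1 and RUNX1T1.

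Components of the phagocyte oxidase rose. Of 7 members of the NADPH oxidase list tested, 5 were called higher and 1 lower, with a median of 0.64. CYBA, the p22phox subunit in the membrane, stood at 49, 246 and 239 CPM in shCtrl and 116, 443 and 443 CPM in shRBPMS (log2 fold change 0.98, SE 0.08, adjusted p = 4.56e-05). Its level in set 1 was lower than in set 2 in either group, and each set showed the rise. NCF4, the p40phox subunit, rose by 0.64 from 39.6, 50.9 and 49.9 to 63, 76.7 and 78.3 CPM. The proton channel HVCN1, which balances the charge the oxidase moves, went the other way, from 37.9, 28.2 and 26.1 to 17.9, 24.4 and 20.5 CPM (a fall of 0.53, adjusted p = 0.0252).

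Several surface receptors of myeloid cells were called higher. CD33, a sialic acid receptor of myeloid cells, went from 12.4, 16.1 and 17.6 CPM to 59.8, 45.3 and 43.9 CPM (log2 fold change 1.68, SE 0.15, adjusted p = 9.71e-05). CLEC12A, a lectin receptor of myeloid blasts, went from 0.358, 0.36 and 0.43 to 3.44, 1.09 and 1.61 CPM (2.25, adjusted p = 0.00153), CD300LF from 0.269, 0.936 and 0.544 to 2.16, 2.33 and 2.26 CPM (1.95), and the adaptor HCST from 0.0895, 0.252 and 0.544 to 1.56, 1.66 and 1.51 CPM (2.32). These 3 were at or below 1 CPM in every control library and above 1 in every knockdown library. On the Fc receptor and immune adaptor list, 6 of 13 rose and 2 fell (6 and 1 in the summed fit), with a median of 1.12. Those that fell were FCGR2A, the Fc gamma receptor IIa, from 18.1, 14 and 15.2 to 12.3, 7.93 and 8.29 CPM, and TREM1, from 1.97, 1.87 and 1.23 to 1.24, 0.635 and 0.502 CPM.

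The aminopeptidase ANPEP (CD13), another myeloid surface antigen, gave one of the largest gains in abundance: 206, 169 and 169 CPM in shCtrl and 907, 476 and 470.02 CPM in shRBPMS (log2 fold change 1.7, SE 0.12, adjusted p = 3.06e-05). TLR6, a receptor for bacterial lipopeptides, rose by 1.99, from 2.15, 2.59 and 3.09 to 11.2, 10.2 and 10.2 CPM (SE 0.15, adjusted p = 3.97e-05), and UNC93B1, which carries toll-like receptors to endosomes, by 1.11. The negative regulator IRAK3 fell by 0.68, from 419, 271 and 260.2 to 216, 187 and 178 CPM. CSF2RB, the common beta chain of the GM-CSF, IL-3 and IL-5 receptors, rose by 1.61, from 1.61, 3.38 and 3.64 to 5.76, 10.5 and 9.94 CPM (SE 0.13, adjusted p = 5.09e-05). MYO1F, a class I myosin of neutrophils, went from 24, 28 and 26.8 to 83.6, 95.8 and 94.2 CPM, with near identical ratios in set 1 (1.79) and set 2 (1.79). FERMT3, the kindlin that activates integrins in blood cells, also rose alike in set 1 (1.11) and set 2 (1.07), from 21.4, 41.9 and 41.8 to 46.6, 85.8 and 89.9 CPM.

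Markers of other blood cell types were checked beside these rises. Of 22 monocyte and macrophage markers listed, 9 were in the table; 7 of the 9 rose and 1 fell (median 1.17), and their summed level was 36.8 to 52.9 CPM in shCtrl and 73.6 to 86.3 CPM in shRBPMS. The macrophage receptor VSIG4 stood at 0.985, 0.36 and 0.773 CPM in shCtrl and 12.9, 1.94 and 1.33 CPM in shRBPMS, MS4A7 at 1.03, 1.26 and 1.63 and 9.31, 3.35 and 2.98, and the myeloid nuclear antigen MNDA at 5.19, 2.7 and 2.86 and 13.7, 6.63 and 4.81; each was highest in the set 1 knockdown library. AIF1 fell, from 7.66, 11.3 and 12.3 to 2.68, 7.09 and 6.21 CPM. In bulk libraries, more cells of a type and more RNA of these genes per cell cannot be told apart. Of 4 erythroid markers tested, 1 rose and 1 fell (0 and 1 in the summed fit). Of 7 B cell markers none rose and 2 fell (0 and 1 in the summed fit). Of 8 mast cell, basophil and eosinophil markers 1 rose and 2 fell (0 and 1 in the summed fit). Each of these lists is short, and 35.4% of all genes were called. Granule protein genes as a group did not move one way: 3 of 11 rose and 1 fell, and their summed level (16350 to 23350 CPM in shCtrl, 19400 to 21210 CPM in shRBPMS) was led by MPO, which was not called (without either set 1 library it was called lower, by 0.23). CTSG, the cathepsin G of primary granules, went from 15.7, 15.9 and 13.7 to 116, 32.8 and 32.1 CPM, a log2 ratio of 2.87 in set 1 and 1.12 in set 2. BPI, a bactericidal granule protein, rose by 1.77 and CFD, complement factor D, fell by 0.92 from 42.1, 29.1 and 30.2 to 19.1, 17.2 and 16.6 CPM.

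TRH, the thyrotropin-releasing hormone precursor, fell in both sets. Its high expression is a known mark of leukaemias with this translocation. It stood at 279.9, 111 and 109.8 CPM in shCtrl and 24, 12.3 and 10.8 CPM in shRBPMS (log2 fold change -3.36, SE 0.08, adjusted p = 3.72e-07). The set 1 control was above the others, and yet the ratio was similar in set 1 (-3.53) and set 2 (-3.23). Among 17 genes of the translocation's signature, 5 fell and 1 rose (4 and 0 with the replicate block and in the summed fit). The share called, 35.3%, was near the 35.4% over all genes, so the list as a whole did not stand out by its number of calls. BAALC, a marker of immature leukaemia cells, fell by 1.2, from 76.1, 58.5 and 57.2 to 46.6, 21.5 and 20.6 CPM, and RUNX1T1 by 0.69, from 490.1, 204 and 210.2 to 236, 148 and 145 CPM.

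CDKN1C, the p57 inhibitor of cyclin-dependent kinases, known for keeping blood stem cells quiescent, was nearly lost. Its level was 9.63, 6.8 and 7.28 CPM (215, 189 and 254 counts) in shCtrl and 0.40, 0.317 and 0.395 CPM (10, 9 and 11 counts) in shRBPMS, a log2 fold change of -4.39 (SE 0.19, adjusted p = 6.44e-06). The fall was alike in both sets. CDKN1A, the p21 inhibitor, fell too, from 10.9, 21.3 and 19.1 to 3.92, 9.66 and 8.72 CPM (-1.22, SE 0.11, adjusted p = 8.82e-05). On the list of G1 cyclins, kinases and inhibitors, 13 of 22 fell and 3 rose (7 and 1 in the summed fit). CDKN2A, the INK4a inhibitor, was one of the rises (3.72, 6.62 and 6.85 to 5.56, 11.1 and 10.3 CPM), and CCND2, a D-type cyclin, one of the falls (282, 135 and 118 to 122, 104 and 101 CPM).

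Several other coding genes fell steeply. The protocadherin DCHS1 went from 18.2, 6.8 and 7.39 to 0.32, 0.529 and 0.861 CPM (log2 fold change -4.09), AFAP1L1, an actin filament-associated protein, from 29.8, 9.97 and 8.36 to 0.959, 1.02 and 0.682 CPM (-4.01), and the sulfotransferase SULT1C2 from 65.7, 24.3 and 26.4 to 2.0, 2.79 and 2.87 CPM (-3.77). CD109, a GPI-anchored TGF-beta co-receptor, went from 139.9, 28.4 and 28.1 to 6.8, 6.66 and 6.57 CPM (-2.89, SE 0.38, adjusted p = 5.98e-04). OLFML2A (-2.77), PPP1R16B (-2.63) and CCNJL (-2.46) were also among the largest falls in coding genes. In all 7, the shCtrl library of set 1 had the highest level of the 6 libraries and the knockdown libraries lay well below every control.

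ITGA2B, the platelet integrin alpha IIb, stood at 4.21, 5.15 and 5.36 CPM in shCtrl and 1.08, 1.41 and 1.94 CPM in shRBPMS (log2 fold change -1.73, SE 0.18, adjusted p = 1.85e-04). PECAM1, the CD31 adhesion molecule, stood at 406, 96.9 and 103 and 103, 48.4 and 45.8 CPM (-1.39, adjusted p = 2.73e-04), with the set 1 knockdown level as high as set 2 control levels. ESAM, a tight junction molecule that marks blood stem cells, stood at 83.4, 72.9 and 74.9 and 20.7, 37.2 and 38.6 CPM (-1.29). Of 15 megakaryocyte and platelet markers listed, 6 were in the table. Of the 6, 2 fell and none rose, and the share called, 33.3%, was near the 35.4% over all genes. Their summed level was 15.5 to 20.2 CPM in shCtrl and 7.34 to 8.56 CPM in shRBPMS.

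Of 19 stem and progenitor factors, 6 rose and 6 fell (4 and 3 in the summed fit), so the list as a whole had no direction (median -0.06). The falls included ERG, an ETS factor of stem cells, from 316, 186 and 197 to 137, 121 and 116 CPM (-0.86, adjusted p = 2.84e-04), and TAL1, from 105, 77.8 and 76.1 to 44.9, 53 and 53.1 CPM (-0.76, adjusted p = 0.00163). CPXM1, a secreted carboxypeptidase-like protein, fell by 1.47, from 80.1, 66.7 and 62.6 to 28.2, 24.4 and 22.7 CPM. The rises included SOCS2, a brake on cytokine signalling, from 11, 14.5 and 13.6 to 25.6, 23.3 and 23.8 CPM (0.89), and HOXA10, from 3.54, 5.87 and 6.27 to 8.83, 8.22 and 8.61 CPM (0.72). KIT and CD34 were not called, though without either set 1 library CD34 was called higher (0.29, adjusted p = 1.91e-06 and 1.85e-06).

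**Figure D2:**
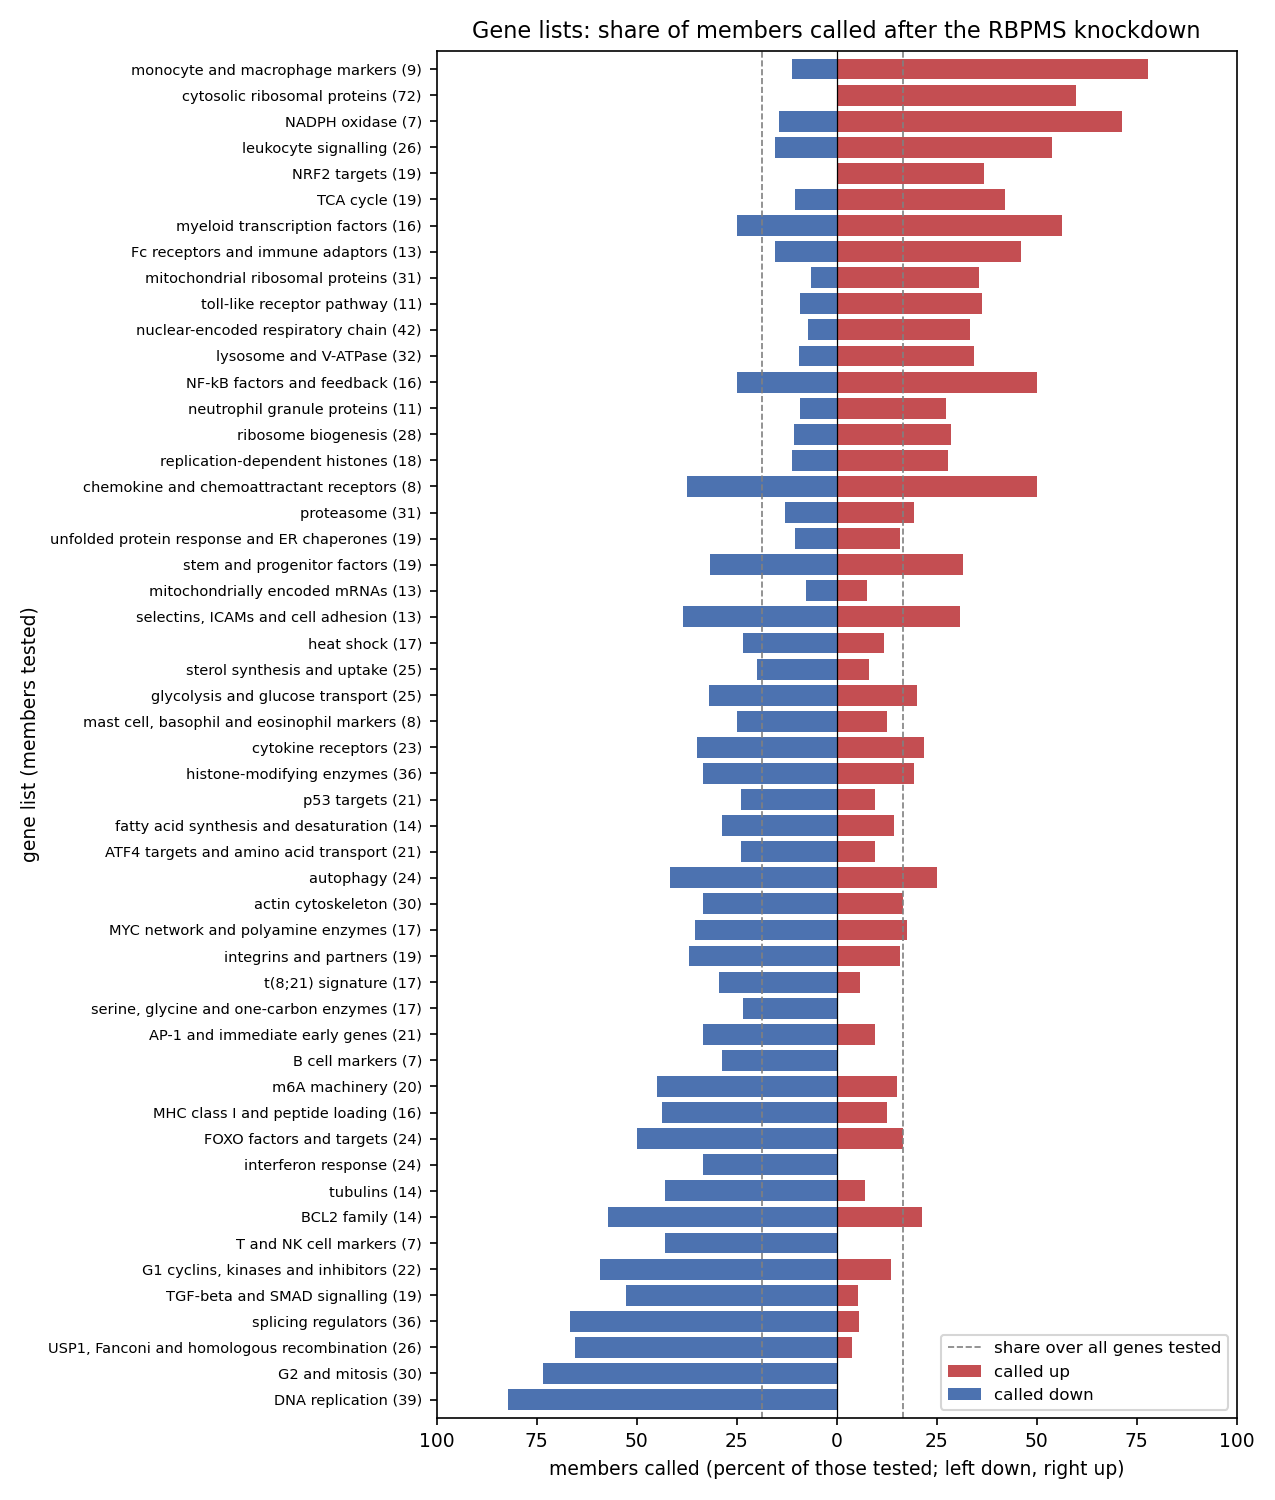
Share of the tested members of each gene list called higher (right, red) or lower (left, blue) after the knockdown, for lists with at least 7 members tested (number in brackets); dashed lines mark the share over all genes, 16.7% higher and 18.7% lower. These lines include non-coding genes and pseudogenes, which were called less often. Of protein-coding genes alone 42.2% were called in either direction, against 35.4% of all genes. DNA replication, mitosis and the USP1 and Fanconi list lean to falls, and monocyte markers, ribosomal proteins and the NADPH oxidase lean to rises.

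Genes of DNA replication and mitosis were called lower, by small amounts, and how many were called depended on the fit. Of 39 DNA replication genes, 32 fell and none rose (12 and 0 in the summed fit), with a median of -0.39. MCM6, a subunit of the replicative helicase, stood at 284, 315 and 312 CPM in shCtrl and 189.9, 218 and 206 CPM in shRBPMS (log2 fold change -0.57, SE 0.05, adjusted p = 7.01e-05). TK1, the thymidine kinase of S phase, stood at 87.3, 195 and 194 and 63.8, 123 and 123 CPM (-0.59). Of 30 genes of G2 and mitosis, 22 fell and none rose (8 and 0 in the summed fit), with a median of -0.31. FOXM1, the transcription factor of the mitotic programme, stood at 189, 125 and 121 and 91.5, 69.3 and 77.5 CPM (-0.84, SE 0.08, adjusted p = 8.82e-05), and MAD2L1, of the spindle checkpoint, at 73.1, 119.5 and 120.2 and 38.4, 70.9 and 71.3 CPM (-0.81). For these genes each set showed the fall, while set 1 and set 2 differed in level.

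On the list of USP1, Fanconi and homologous recombination genes, 17 of 26 fell and 1 rose (15 and 0 with the replicate block, 7 and 0 in the summed fit), with a median of -0.27. FANCD2, the Fanconi protein from which USP1 removes ubiquitin, fell by 0.59, from 146, 134 and 140.5 to 91, 92.3 and 97.3 CPM (SE 0.06, adjusted p = 1.39e-04). ID3, one of the inhibitors of differentiation that USP1 can stabilise as proteins, fell by 2.03, from 2.82, 3.92 and 4.13 to 0.44, 1.09 and 1.15 CPM, and ATAD5, which brings USP1 to PCNA, by 0.63, from 97.9, 61.3 and 61.4 to 50.1, 46.8 and 42.6 CPM.

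The m6A mark is written on mRNA by the METTL3 complex, removed by FTO and ALKBH5, and read by YTH and IGF2BP proteins. Of 20 genes of this machinery, 9 fell and 3 rose (5 and 3 with the replicate block, 1 and 1 in the summed fit). The reader IGF2BP3 fell most, from 93.3, 62.7 and 68.9 to 27.9, 26.5 and 24.4 CPM (log2 fold change -1.49, SE 0.09, adjusted p = 1.86e-05). IGF2BP2 fell by 0.34 and YTHDC1, the nuclear reader, by 0.30. Both erasers rose: ALKBH5 from 33.9, 46.5 and 44 to 46.6, 57.4 and 58.7 CPM (0.39, adjusted p = 0.00138) and FTO from 27.7, 22.3 and 22.1 to 36.1, 28.3 and 27 CPM (0.34, adjusted p = 0.00429). RBM15B, a subunit that guides the writer complex, rose by 0.21.

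Regulators of splicing were called mostly lower, but few of the calls held in the summed fit. Of 36, 24 were called lower and 2 higher (17 and 1 with the replicate block, 3 and 1 in the summed fit), with a median of -0.21. RBPMS, the target of the hairpin, is on this list and counts among the falls in each of these fits. SRSF4 fell by 0.49, from 199.98, 185 and 175 to 131, 130.5 and 138 CPM, CELF2 by 0.38 and PTBP3 by 0.37. HNRNPA2B1, which is on the m6A list as well, lost 0.40 from a high level (1549.8, 1989 and 2106 CPM). The muscleblind protein MBNL3 rose, from 46.6, 24.6 and 24.5 to 70.2, 33.9 and 36 CPM.

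FOXO factors and their known targets were called lower more often than higher. Of 24, 12 fell and 4 rose (7 and 3 in the summed fit), with a median of -0.26. The median log2 ratio was -0.53 in set 1 and -0.16 in set 2. BCL6, a repressor that FOXO proteins induce, went from 16.5, 2.38 and 3.18 to 0.80, 0.811 and 1.29 CPM (log2 fold change -2.5, adjusted p = 0.00541), with most of that fall in set 1. PMAIP1, the BH3-only protein NOXA, went from 30.9, 59.1 and 49.9 to 16.6, 28.6 and 27.8 CPM (-0.93, SE 0.08, adjusted p = 6.76e-05), alike in both sets. KLF2, a quiescence factor, rose instead, from 6.0, 6.69 and 5.96 to 9.11, 19.7 and 16.5 CPM (1.25), and PIK3R1, a regulatory subunit of PI3-kinase, from 249.5, 193 and 200.04 to 427, 281 and 240.3 CPM (0.53).

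In the BCL2 family, which sets the threshold for mitochondrial apoptosis, 8 of 14 fell and 3 rose. Both a protector, BCL2 (61.3, 50.3 and 47 to 42.1, 30.4 and 28.3 CPM, -0.67), and killers, BMF (14.5, 9.61 and 9.48 to 2.72, 4.69 and 3.41 CPM, -1.6) and BCL2L11 (-0.66), were among the falls. BOK (0.72), BAD (0.71) and BIK (0.59) rose. Of 21 p53 targets, 2 rose and 5 fell (2 and 2 with the replicate block, 1 and 2 in the summed fit). The share called, 33.3%, was near the 35.4% over all genes. RRM2B, a p53-induced ribonucleotide reductase subunit, rose from 17.7, 18.5 and 16.7 to 40.6, 35.3 and 31.6 CPM, while FDXR fell by 0.90.

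Interferon response genes fell where they were called: 8 of 24 lower and none higher (8 and 1 with the replicate block), with a median of -0.47. The other 16 were not called. The share called, 33.3%, was near the 35.4% over all genes, of which 16.7% were higher and 18.7% lower. DDX60, an antiviral helicase, stood at 15.2, 15.3 and 14.2 CPM in shCtrl and 5.88, 5.96 and 7.07 CPM in shRBPMS (log2 fold change -1.24, SE 0.11, adjusted p = 7.48e-05). IFIT1 stood at 3.67, 8.31 and 7.76 and 1.48, 4.37 and 3.95 CPM (-1.03) and IFI6 at 6.76, 15.8 and 14.8 and 3.16, 8.32 and 6.89 CPM (-1.03). Of 16 MHC class I and peptide loading genes 7 fell and 2 rose (6 and 1 with the replicate block, 4 and 1 in the summed fit). HLA-B fell by 0.59, from 92.4, 186 and 186 to 62.8, 123 and 121 CPM, and the transactivator NLRC5 by 0.67, while the chaperone TAPBP rose by 0.89, from 65, 50.4 and 50.6 to 143, 85.1 and 86.2 CPM. HLA genes share near-identical sequence, so reads can be split between them.

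NF-kB factors and feedback genes were called higher in 8 and lower in 4 of 16 (5 and 3 in the summed fit). CXCL8, the neutrophil chemokine, went from 4.88, 25.6 and 37.7 to 21.6, 40.4 and 58.3 CPM, with large differences between sets in both groups, and the set 2 control levels above the set 1 knockdown level. TNFAIP3, the A20 brake, rose by 0.67 from 19.2, 21.4 and 17.8 to 26.7, 33.6 and 32.5 CPM, whereas NFKBIA, the inhibitor IkB alpha, fell by 0.92 from 42, 29.6 and 32.7 to 17.9, 18.3 and 18.3 CPM. In TGF-beta and SMAD signalling 10 of 19 fell and 1 rose (6 and 0 in the summed fit). SMAD7, the inhibitory SMAD, fell by 1.324 from 7.66, 19 and 14.4 to 3.0, 7.02 and 6.35 CPM, and the receptor TGFBR2 by 0.57 from 225, 201 and 194 to 115, 165 and 139.6 CPM.

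The largest change among all genes of at least moderate abundance on the falling side was in a mitochondrial tRNA. Mitochondrial DNA is transcribed as long precursors on both strands, and tRNAs punctuate the mRNAs and rRNAs and are excised from them. Of 22 mitochondrial tRNA genes, 12 fell and 2 rose (63.6% called), 11 of them by at least 1, with a median of -0.96. MT-TD, the aspartate tRNA, stood at 87.8, 20.4 and 16.4 CPM (1961, 566 and 572 counts) in shCtrl and 1.28, 1.06 and 0.969 CPM (32, 30 and 27 counts) in shRBPMS, a log2 fold change of -5.0 (SE 0.31, adjusted p = 1.97e-05). MT-TS1, a serine tRNA next to MT-TD on the opposite strand, stood at 18.9, 5.44 and 5.3 and 0.60, 0.317 and 0.395 CPM (-4.38). MT-TW, for tryptophan, stood at 2.19, 5.9 and 3.41 and 0.040, 0.388 and 0.144 CPM (-4.29).

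The sequences below show 5 of the tRNA genes that fell, among them the 3 with the largest falls, together with 2 that did not fall, from the GENCODE 29 transcripts on GRCh38, 5′ to 3′ on the gene's strand, with the anticodon in capitals. They lie at chrM:7518-7585 (plus, MT-TD), chrM:7446-7514 (minus, MT-TS1), chrM:5512-5579 (plus, MT-TW), chrM:4402-4469 (plus, MT-TM), chrM:1602-1670 (plus, MT-TV), chrM:5657-5729 (minus, MT-TN) and chrM:15956-16023 (minus, MT-TP).
MT-TD: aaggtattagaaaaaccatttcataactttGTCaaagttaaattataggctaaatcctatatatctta
MT-TS1: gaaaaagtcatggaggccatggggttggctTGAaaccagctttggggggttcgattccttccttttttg
MT-TW: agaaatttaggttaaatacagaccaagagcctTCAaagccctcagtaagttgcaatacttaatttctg
MT-TM: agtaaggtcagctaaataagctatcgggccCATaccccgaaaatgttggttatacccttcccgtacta
MT-TV: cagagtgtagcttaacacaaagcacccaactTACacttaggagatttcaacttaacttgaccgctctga
MT-TN: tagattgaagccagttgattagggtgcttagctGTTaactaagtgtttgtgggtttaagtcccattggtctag
MT-TP: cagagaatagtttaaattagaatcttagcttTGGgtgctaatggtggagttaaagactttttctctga
Of these, MT-TW, MT-TM, MT-TV, MT-TN and MT-TP were chosen after their values were seen. MT-TK (lysine), also named after its values were seen and not shown as a sequence, fell by 3.26, from 8.15, 2.48 and 2.01 to 0.56, 0.388 and 0.251 CPM, next in size after MT-TD, MT-TS1 and MT-TW. MT-TM (methionine) fell by 2.48 and MT-TV (valine) by 2.15. MT-TN (asparagine) was not called (51.4, 69.3 and 53.5 CPM in shCtrl and 46.7, 73.8 and 60.1 CPM in shRBPMS), and MT-TP (proline) rose by 0.46, from 72.1, 36.6 and 34.9 to 92.2, 54.4 and 48.1 CPM. These genes are shorter than 80 bases and the counting strand is not given in the sources used here, so reads of a neighbouring or opposite transcript cannot be told apart from those of a tRNA.

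**Figure D3:**
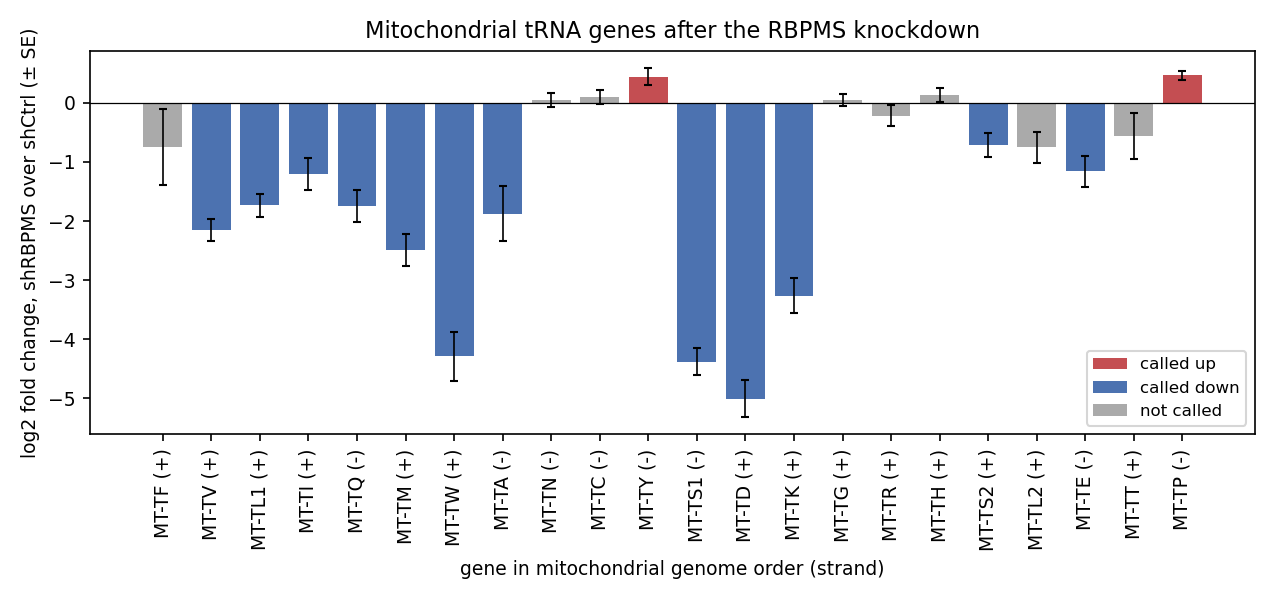
Log2 fold change of the 22 mitochondrial tRNA genes in genome order (strand in brackets), with bars coloured by call and error bars of 1 SE over the 6 libraries. MT-TW, MT-TS1 and MT-TD fell by more than 4, and the block from MT-TN to MT-TY did not fall.

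The long mitochondrial RNAs moved much less. MT-RNR2, the large ribosomal RNA, fell by 0.72 (SE 0.09, adjusted p = 5.82e-04), from 19883, 4472 and 4019.5 CPM to 9829, 2992 and 2718 CPM. Its level was several times higher in set 1 than in set 2, so the groups overlapped over all libraries but not within a set. Of the 13 mitochondrially encoded mRNAs, MT-ND3 rose by 0.17 and MT-ND6, the one mRNA of the light strand, fell by 0.39. Neither was called in the summed fit. An interaction of label set and knockdown was called in 12 of the 13, beside 17.2% of all genes. Set 1 holds 1 library per group, so the spread in that model comes from set 2 alone. With the replicate block MT-ND3 was not called (adjusted p = 0.0809).

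Genes of cytosolic ribosomal proteins were called higher by small amounts, and nearly all of these calls were lost in the summed fit. Of 72 cytosolic ribosomal protein genes, 43 rose and none fell (26 and 0 with the replicate block, 2 and 0 in the summed fit), with a median of 0.17. RPLP0, a stalk protein, stood at 1425, 2765 and 2780.4 CPM in shCtrl and 2078, 3436 and 3421 CPM in shRBPMS (log2 fold change 0.39, SE 0.06, adjusted p = 0.00136). The difference between sets was larger than that between groups, and both sets showed the rise. The elongation factor EEF2 rose by 0.29, from 2265, 2459.7 and 2552 to 2753, 3072 and 3099.6 CPM. Ribosomal protein genes have many processed pseudogenes that share their reads. Mitochondrial ribosomal proteins were called higher in 11 and lower in 2 of 31 (6 and 1 with the replicate block, 3 and 0 in the summed fit), with MRPL4 rising by 0.60 and MRPS2 falling by 0.43. Of 42 nuclear genes of the respiratory chain 14 rose and 3 fell (3 and 2 in the summed fit), among the falls NDUFA1, a subunit of complex I, from 25.8, 100.4 and 99.6 to 12.3, 54.2 and 56.9 CPM (-0.91, adjusted p = 3.77e-05).

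Among abundant transcripts that fell, NPM1, the nucleolar histone chaperone, stood at 1444, 1519 and 1478 CPM in shCtrl and 992, 942 and 921 CPM in shRBPMS (log2 fold change -0.64, SE 0.05, adjusted p = 5.86e-05). NUCKS1, a chromatin protein of DNA repair and cell cycle entry, went from 843, 718 and 731 to 297, 336 and 328 CPM (-1.25, SE 0.08, adjusted p = 2.06e-05). HSD17B10, a mitochondrial dehydrogenase that is also a subunit of the RNase P that cuts mitochondrial tRNAs at their 5′ ends, rose from 8.46, 16.6 and 15 to 44.6, 82.3 and 78.9 CPM (2.37, SE 0.07, adjusted p = 1.03e-06), alike in set 1 (2.36) and set 2 (2.34).

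In metabolism, the glucose transporter SLC2A3 fell by 1.93, from 292, 142 and 146 to 37, 50.6 and 56.1 CPM (SE 0.26, adjusted p = 6.94e-04), while GPI, the second enzyme of glycolysis, rose by 0.62, from 220.3, 379 and 387 to 384, 542 and 559.6 CPM. On the glycolysis and glucose transport list 5 of 25 rose and 8 fell (4 and 2 in the summed fit). PPAT, the first committed enzyme of purine synthesis, fell by 0.96, from 172, 148 and 136 to 80.3, 75.8 and 76.4 CPM. Among amino acid transporters SLC38A2 fell by 0.92, from 427, 329 and 342 to 173, 204 and 198 CPM. Of 19 NRF2 targets, the antioxidant genes, 7 rose and none fell (2 and 0 in the summed fit), among them TXN, thioredoxin, from 144, 212 and 214 to 228, 273 and 265 CPM. The share of NRF2 targets called, 36.8%, was near the 35.4% over all genes, of which 16.7% were higher. ATP6V0D1, a subunit of the lysosomal proton pump, rose by 0.94, from 43.3, 42.5 and 44.7 to 86.1, 81 and 84.4 CPM, and another subunit, ATP6V1A, fell by 0.91, from 82.8, 56.3 and 59.2 to 36.7, 34.3 and 33.1 CPM.

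The measured size of the response differed between the label sets for many genes. A model with an interaction of set and knockdown called 2814 of 16405 genes (17.2%), in which the log2 effect was higher in set 2 for 1588 and lower for 1226. Of the 5806 genes called in the knockdown, 1422 (24.5%) were among them, and 21 had ratios of opposite sign in the sets. Among genes called with the same sign in both sets, 73.6% had the larger ratio in set 1. For changes of at least 1 the median size was 1.48 in set 1 and 1.06 in set 2. Set 1 holds 1 library per group, so the spread in this model comes from set 2 alone. There, replicates 2 and 3 were close to each other (chi-square per degree of freedom of 3.0 in either group). Whether they were separate cultures is not given, so ordinary variation between cultures cannot be told apart from an effect of the set. In DESeq2 the interaction called 1315 genes.

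**Figure D4:**
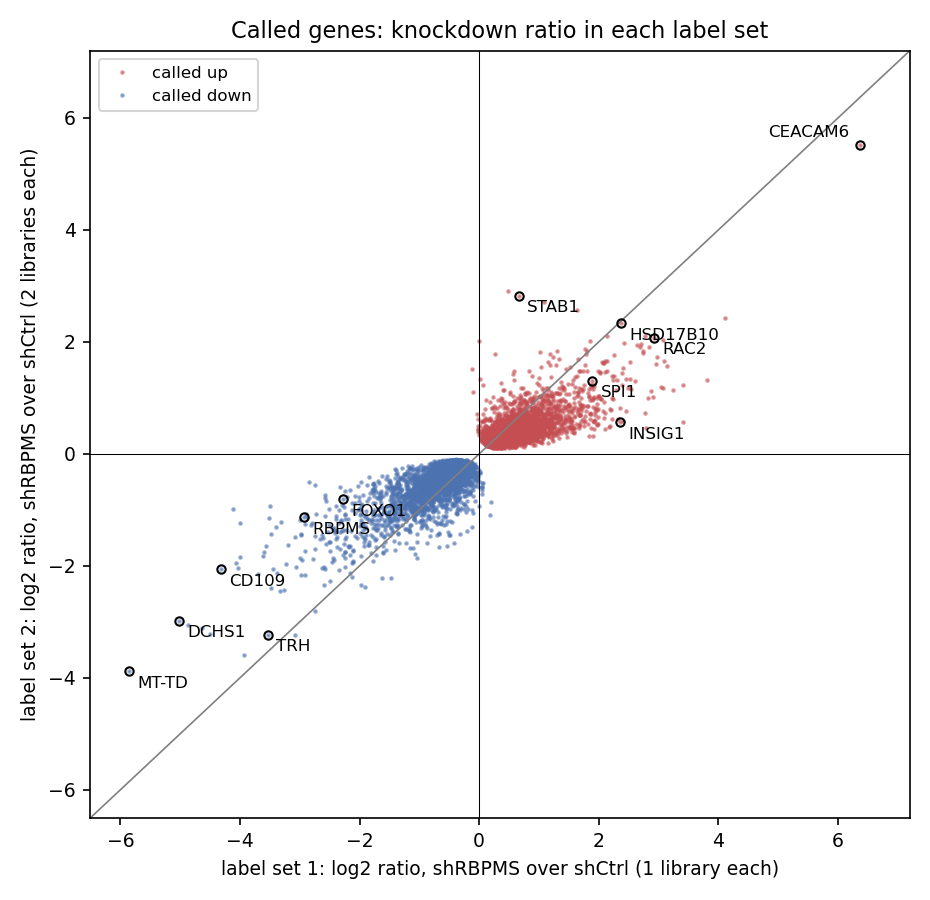
Log2 ratio of shRBPMS over shCtrl for the 5806 called genes, computed within label set 1 (x axis, 1 library per group) and label set 2 (y axis, 2 libraries per group), from CPM with 0.25 added; the grey line marks equal ratios. Most points lie between the x axis and the line, that is, with the larger ratio in set 1, and STAB1 lies far above it.

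STAB1 and INSIG1 rose in both sets by unequal amounts. STAB1, a scavenger receptor of macrophages, stood at 19.3, 25.3 and 25.2 CPM in shCtrl and 30.8, 181 and 180.2 CPM in shRBPMS, so the rise was 0.67 in set 1 and 2.82 in set 2. INSIG1, which holds the sterol sensor in the endoplasmic reticulum, stood at 138, 90.2 and 92.1 and 705, 136 and 133 CPM, a rise of 2.35 in set 1 and 0.56 in set 2. The chemokine receptor CCR4 moved in opposite directions: it stood at 9.8, 2.77 and 3.27 CPM in shCtrl and 1.92, 5.89 and 4.81 CPM in shRBPMS, with ratios of -2.21 and 0.77. It was not called over all libraries, and without either set 1 library it was called higher (0.82, adjusted p = 0.000503 and 0.000224).

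Several gene lists of lipid and stress metabolism had medians of opposite sign in the sets. The median log2 ratio of 25 sterol synthesis and uptake genes was 0.43 in set 1 and -0.30 in set 2. An interaction past 0.05 was called in 21 of the 25, beside 17.2% of all genes. Of the 25, 2 were called higher and 5 lower over both sets (2 and 3 with the replicate block and in the summed fit). The share called, 28%, was below the 35.4% over all genes. The desaturase SCD stood at 535, 354 and 356 CPM in shCtrl and 535, 186 and 187 CPM in shRBPMS, with a log2 ratio of 0.00 in set 1 and -0.93 in set 2. Fatty acid synthesis genes had medians of 0.48 and -0.21, the unfolded protein response 0.39 and -0.21, ATF4 targets 0.26 and -0.13, and heat shock genes 0.25 and -0.17. In contrast, the monocyte markers (1.15 and 0.96), the NADPH oxidase (0.70 and 0.62) and DNA replication (-0.31 and -0.40) had medians of one sign. What differed between the sets besides the share of mitochondrial RNA is not given in the sources used here, and its part in these differences was not tested.

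**Figure D5:**
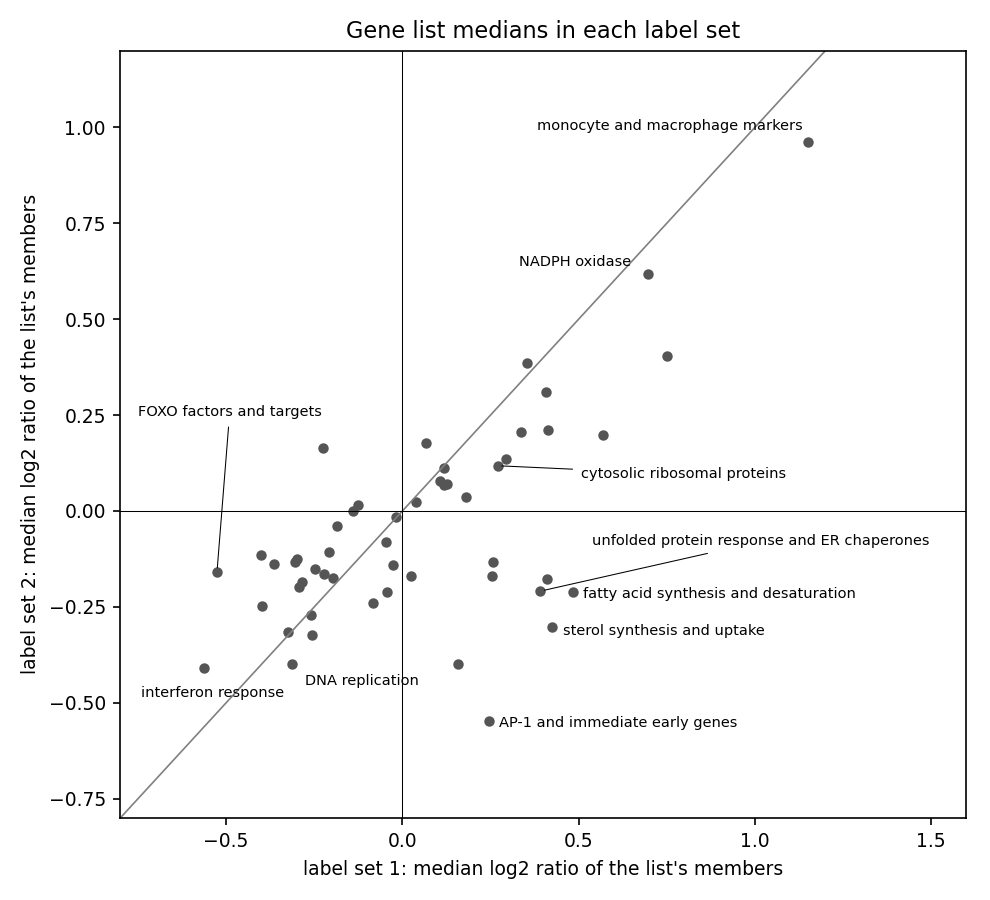
Median log2 ratio of the members of each gene list (7 or more tested) in label set 1 (x axis) and label set 2 (y axis), each point being 1 list; the grey line marks equal medians. Lists of lipid synthesis, the unfolded protein response and AP-1 lie at the lower right, above 0 in set 1 and below 0 in set 2.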

How the data were processed

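Bulk RNA-seq libraries of 3 shCtrl and 3 shRBPMS samples of Kasumi-1 were used, grouped by their labels. Per the file headers, the deposited values are raw read counts per gene. Tools listed without role or order in the submitters' processing notes include HISAT2 2.2.1 and featureCounts 2.0.1 beside fastp 0.22.0, with the build GRCh38. The counting strand is not given in the sources used here. The table also holds 6 adjusted per-library columns that were not used here. The gene lists and comparisons were chosen with earlier results of these data known.

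Counts were fitted in edgeR 4.0.16 (R 4.3.3, limma 3.58.1) with label set and group as terms, TMM factors, a filter on low counts (filterByExpr, minimum count 10, total 15) and the quasi-likelihood test with Benjamini-Hochberg adjustment; SE is the size of the log2 fold change over the square root of F. Library totals of 24027255 to 34375418 counts set the precision, and p-values cover the spread between these libraries alone. Ratios within a set used CPM plus 0.25. The same steps were tested on simulated counts with known changes, alike in both sets, drawn independently for each library. Such counts cannot check effects that differ between sets or replicates that are close to each other. Of the gene identifiers, 16195 were found in GENCODE 29. The naming rule took RBPMS, USP1 and FOXO1, the 12 called genes per direction with the largest fold change (mean log2 CPM of at least 2) and the 8 with the largest change in CPM, both without overlap of the groups within a set. It also took up to 4 called members per direction of each list (mean log2 CPM of at least 0) and the 6 genes per sign with the largest interaction. The rule gave 338 genes, of which a selection is described, with the myeloblast markers KIT, CD34 and MPO. RBPMS2 and 6 mitochondrial tRNA genes outside the rule were added after their values were seen.

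Replicate numbers are shared between the groups. Deviations from the group means correlated within the same number (0.755, 0.572 and 0.584 for numbers 1, 2 and 3 over 16392 genes), so the numbers were taken as pairs on this check alone, and the replicate number entered 1 of the alternative fits as a block. Replicates 2 and 3 correlated as well across numbers (0.570 and 0.577), so the structure follows the label set. Pairing by number within set 2 is not shown by this check. Other alternatives were group alone, median-ratio scaling, library totals, no filter, DESeq2 1.42.0, limma-voom, leaving out each library and summing replicates 2 and 3. The compound, RIP and m6A samples of the series were not used here.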

Additional observations from a re-analysis of the deposited data

Results flagged for a closer look

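For 2814 genes (17.2% of those tested) the knockdown effect differed between the label sets (interaction of set and knockdown, adjusted p under 0.05 in edgeR's quasi-likelihood test). Of the 149 genes named here, 77 were among them. The naming rule took genes with the largest interactions and the largest changes, so their share is not comparable with that of all genes. Each value below is the log2 effect in set 2 minus that in set 1. Set 1 has 1 library per group, so these values have no replicate check on that side.

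Among genes called higher, the rise was smaller in set 2 for 27, first the macrophage genes VSIG4 (-2.23) and MS4A7 (-2.06), the sterol regulator INSIG1 (-1.79) and the granule protease CTSG (-1.75). The others were CXCL8 (-1.51), BPI (-1.24), UNC93B1 (-1.21), SEMA4A (-1.08), BOK (-0.99), LAPTM5 (-0.92), CD33 (-0.87), RAC2 (-0.87), HOXA10 (-0.85), VDR (-0.82), PTPRC (-0.75), ANPEP (-0.66), SPI1 (-0.59), IRF5 (-0.47), SOCS2 (-0.47), JUND (-0.42), TAPBP (-0.38), CYBA (-0.37), PIK3R1 (-0.37), TXN (-0.33), ACTN1 (-0.28), GPI (-0.28) and RPLP0 (-0.24). STAB1 (2.16) and KLF2 (0.92) had the larger rise in set 2.

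Among genes called lower, the fall was smaller in set 2 for 42. The differences were largest for the transcription factors BCL6 (2.95) and IRF4 (2.79), for DCHS1 (2.46), CD109 (2.27), OLFML2A (2.17), MT-TD (1.93) and SULT1C2 (1.87), and for RBPMS itself (1.86). The others with a value above 0.5 were SLC2A3 (1.55), AFAP1L1 (1.54), FOXO1 (1.48), PPP1R16B (1.44), BMF (1.18), CCNJL (1.07), ESAM (1.04), CCND2 (0.90), PECAM1 (0.90), LYN (0.84), HVCN1 (0.82), NLRC5 (0.72), TAL1 (0.68), BCL2L11 (0.65), TGFBR2 (0.59), SLC38A2 (0.56), HDAC5 (0.56), RUNX1T1 (0.55), ERG (0.52) and ATAD5 (0.51). Those at or under 0.5 were NFKBIA (0.46), MT-RNR2 (0.44), MT-ND6 (0.42), RUNX1 (0.41), IRAK3 (0.41), ATP6V1A (0.40), CELF2 (0.39), NUCKS1 (0.38), IGF2BP3 (0.37), FOSL2 (0.31), FOXM1 (0.30), IGF2BP2 (0.30), YTHDC1 (0.29) and LCP1 (0.23). The fall was larger in set 2 for SCD (-0.93) and BAALC (-0.75).

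Of the genes not called over all libraries, CCR4 (3.17), CD34 (0.58), MPO (-0.54) and KIT (0.30) differed between the sets as well.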

How the results depend on the processing

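The 5806 calls (2735 higher, 3071 lower) became 320 (102 higher, 218 lower) in a fit on group alone and 2681 (1268 and 1413) with replicates 2 and 3 summed. The share of calls that were higher was 47.1%, 31.9% on group alone and 45.6% to 53.7% under the other alternatives. Calls of at least 1 on the log2 scale went from 932 to 240 on group alone, the 333 called genes of the naming rule to 47, and the 572 called members of the gene lists to 40 on group alone and 267 when summed. The interaction of set and knockdown called 2814 genes and 1315 in DESeq2. The cause of these differences was not tested. Leaving out 1 library gave 4145 to 6830 calls (1890 to 3312 higher, 2252 to 3539 lower), 844 to 928 of at least 1, 283 to 326 genes of the naming rule, 421 to 717 list members and, for the interaction, 2633 to 3008; the interaction alternatives without replicates 2 or 3 were chosen after seeing the data. Without a set 1 library the other set 1 library carries no information on the knockdown. None of the 5806 called genes had the opposite sign under any of the alternatives to the knockdown fit.

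With a replicate block, 4604 genes were called (2120 higher, 2484 lower). Of the 149 genes named here, MT-ND3 lost its call and the block changed no other.

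On group alone 102 of the 144 called genes named here lost their call. With replicates 2 and 3 summed the 16 listed with the overall counts did. In DESeq2 CCND2 (adjusted p = 0.057) and LYN (0.0686) did. Leaving out 1 library ended the calls of CXCL8 without shCtrl replicate 2 (0.061) or shRBPMS replicate 3 (0.0904), of HVCN1 (0.0822) and MT-ND6 (0.0562) without shRBPMS replicate 3, of RBM15B without shCtrl replicate 3 (0.0635), of RUNX1 without shRBPMS replicate 2 (0.0585), and of YTHDC1 without shCtrl replicate 3 (0.0657) or shRBPMS replicate 3 (0.0504). SCD lost its call without shCtrl replicate 3 (0.0599), shRBPMS replicate 2 (0.112) or shRBPMS replicate 3 (0.0868), TREM1 without shCtrl replicate 2 (0.0506), shRBPMS replicate 2 (0.0672) or shRBPMS replicate 3 (0.0678), FOS without shCtrl replicate 3 (log2 fold change -0.304, adjusted p = 0.0838), shRBPMS replicate 2 (0.112) or shRBPMS replicate 3 (0.0598), and MT-ND3 without any single set 2 library (0.0789 to 0.133).

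Among the named genes, signs changed in 3 that were not called. The log2 fold change of CCR4 ran from -0.551 without shCtrl replicate 2 to 0.817 and 0.816 without shCtrl or shRBPMS replicate 1. That of MPO ran from -0.230 without shCtrl replicate 1 to 0.0346 without shRBPMS replicate 2, and was 0.0564 with replicates 2 and 3 summed. That of MT-TN ran from -0.0862 without shCtrl replicate 3 to 0.133 without shRBPMS replicate 1, and was -0.059 without shRBPMS replicate 2. The cause was not tested. Under library totals the sterol list had 3 members higher and 3 lower.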

Other observations

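Several other gene groups were measured and are given here as values. Of 21 AP-1 and immediate early genes, 7 fell and 2 rose (4 and 2 with replicates 2 and 3 summed), with a median log2 ratio of 0.25 in set 1 and -0.55 in set 2. FOSL2, a FOS-related AP-1 subunit, fell from 106, 140.3 and 141 CPM to 42.1, 68.5 and 70.1 CPM (log2 fold change -1.12, adjusted p = 2.34e-05 in edgeR's quasi-likelihood test), and DUSP4, a MAP kinase phosphatase, from 4.48, 3.17 and 3.12 to 0.76, 1.13 and 0.825 CPM (-1.95). FOS stood at 2.69, 59.1 and 90.6 CPM in shCtrl and 1.8, 47.6 and 52.3 CPM in shRBPMS, many times lower in set 1 than in set 2 in both groups, and was called lower (-0.58, adjusted p = 0.0188). JUND rose from 31.7, 64.6 and 53.1 to 67.3, 93.2 and 93.4 CPM (0.80).

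Cytoskeletal genes gave separate calls in both directions. Of 14 tubulins 6 fell and 1 rose (1 and 1 when summed), led by TUBB4A, a brain-type beta tubulin, from 20.5, 12.5 and 13.4 to 4.56, 3.1 and 3.37 CPM (-2.06, adjusted p = 1.21e-05). CNN2, a calponin that binds actin, fell from 69.9, 77.9 and 79.7 to 22.3, 26.1 and 31.6 CPM (-1.51, adjusted p = 1.61e-05), while ACTN1, an alpha-actinin, rose from 82.5, 87.5 and 90.8 to 148, 128 and 135 CPM (0.65). Of 20 T and NK cell markers listed, 7 were in the table, and 3 of the 7 fell and none rose. CD3D, a T cell receptor subunit, was among them, from 9.0, 8.53 and 7.96 to 1.8, 2.64 and 2.26 CPM (-1.92, adjusted p = 6.08e-05). The summed level of the 7 T and NK cell markers had no one direction. It stood at 88.9, 63.6 and 66.6 CPM in shCtrl and 116.4, 50.8 and 50.4 CPM in shRBPMS, higher in set 1 and lower in set 2. Of 18 replication-dependent histone genes in the table, 5 rose and 2 fell (4 and 1 with the replicate block and when summed). Among them H2AC6 stood at 1.84, 0.684 and 0.63 CPM in shCtrl and 7.0, 2.57 and 3.45 CPM in shRBPMS (2.08); histone genes are near-identical copies, so reads can be split between them. HDAC5, a class IIa histone deacetylase, fell from 19.7, 23.6 and 23.1 to 7.44, 12.9 and 13 CPM (-1.01, adjusted p = 2.83e-04), and DOT1L, the methyltransferase, rose from 137, 187 and 177 to 234, 288 and 312 CPM (0.74, adjusted p = 3.95e-05).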
